A study of Mus musculus with 2 samples.

Results

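Imprinted genes are expressed mainly from 1 parental allele, and several of their loci carry microRNA (miRNA) genes. A large group of them lies between Dlk1 and Dio3. The 5 miRNA genes of this report belong to other imprinted loci: Mir335 at Mest, Mir296 and Mir298 beside Gnas, Mir483 in Igf2 and Mir675 in H19. The rule that chose these 5 used loci and gene names and no counts, but it was set with earlier results of these data known. They make up 5 of the 2202 miRNA genes in the tables. All 5 names matched 1 gene each.

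The libraries hold RNA below 30 nt from adult female mice, 8 to 10 months old, of a strain labelled 5xFAD/CAST. Their tissue is labelled layer of hippocampus, without the name of the layer. 5xFAD mice carry human amyloid precursor protein and presenilin transgenes with mutations of familial Alzheimer's disease. CAST commonly stands for an inbred line of wild Mus musculus castaneus origin. The labels name neither the promoter of the transgenes nor how the strains were combined, and they give 2 biological replicates under 1 donor entry. There is no second genotype, age or tissue, so the data give levels and their spread between the 2 libraries, not an effect of the transgenes.

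A miRNA hairpin is cut into arms of about the same length (21 to 24 bases for the 10 arms here). The bases of an arm that pair first with a target, positions 2 to 8, are called its seed. Mest and Igf2 are expressed from the paternal allele in most tissues and H19 from the maternal one. Igf2 encodes a fetal growth factor, and H19 is a non-coding RNA abundant before birth, with both falling in most tissues afterwards. In the adult brain Igf2 is known from the choroid plexus and the meninges. Nespas, the antisense transcript of the Gnas region, is paternally expressed. The counts used here do not tell the parental alleles apart, so imprinting itself was not measured.

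The arms are shown so that the seeds can be compared, each 5′ to 3′ from RefSeq (GRCm38.p6) with the seed in capitals.
mmu-miR-335-5p: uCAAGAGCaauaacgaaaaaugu
mmu-miR-335-3p: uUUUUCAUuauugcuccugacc
mmu-miR-298-5p: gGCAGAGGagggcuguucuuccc
mmu-miR-298-3p: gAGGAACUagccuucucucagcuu
mmu-miR-296-5p: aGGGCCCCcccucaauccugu
mmu-miR-296-3p: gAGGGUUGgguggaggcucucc
mmu-miR-483-5p: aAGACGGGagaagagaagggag
mmu-miR-483-3p: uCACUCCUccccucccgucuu
mmu-miR-675-5p: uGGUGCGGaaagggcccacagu
mmu-miR-675-3p: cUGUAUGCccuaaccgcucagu

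No seed of these 10 arms was found in an arm of any other gene among the 1738 mature entries of the RefSeq table, nor did the members share one. The 5 genes are thus grouped by imprinting and not by a common seed. No whole arm occurred in another of its 1005 hairpins. Among annotated transcripts, each arm occurred in its own gene alone, except that both arms of miR-675 also lie in H19. The genome sequence outside transcripts was not searched. The arms of miR-335 were poor in G and C, at 30.4% for 5p and 36.4% for 3p, and the other 8 arms ranged from 50.0% to 68.2%. Over whole hairpins the share of G and C was 42.9% in Mir335, 53.7% in Mir298, 58.9% in Mir483, 63.1% in Mir675 and 63.3% in Mir296, beside a median of 51.7% over all 1005 hairpins. The predicted folding energy was most negative for Mir675, at -56.0 kcal/mol or -0.67 per base, and ranged from -0.55 to -0.45 per base in the other 4 members, where the median over all hairpins was -0.41 per base.

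The positions of the members differ in kind. Mir335 (ENSMUSG00000065501.1) lies at chr6:30741299-30741396 on the plus strand of mm10, in an intron of all 7 Mest transcripts that span it. Mir483 (ENSMUSG00000070140.1) lies at chr7:142654924-142654996 on the minus strand, in an intron of Igf2 and of the overlapping gene Gm49394. Mir675 (ENSMUSG00000076275.1) lies at chr7:142577064-142577147 on the minus strand, within an exon in 3 of the 4 H19 transcripts that span it, and 77776 bases from Mir483. Mir296 (ENSMUSG00000065521.1) at chr2:174267047-174267125 and Mir298 (ENSMUSG00000065410.1) at chr2:174267504-174267585 share the minus strand with 378 bases between them. The M21 annotation places no other gene over that pair, and the annotated end of Nespas, on the same strand, lies 13651 bases upstream of Mir298. No annotated gene lies on the opposite strand of any member, and the opposite-strand count was 0 for all 5 in both libraries.

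**Figure D1:**
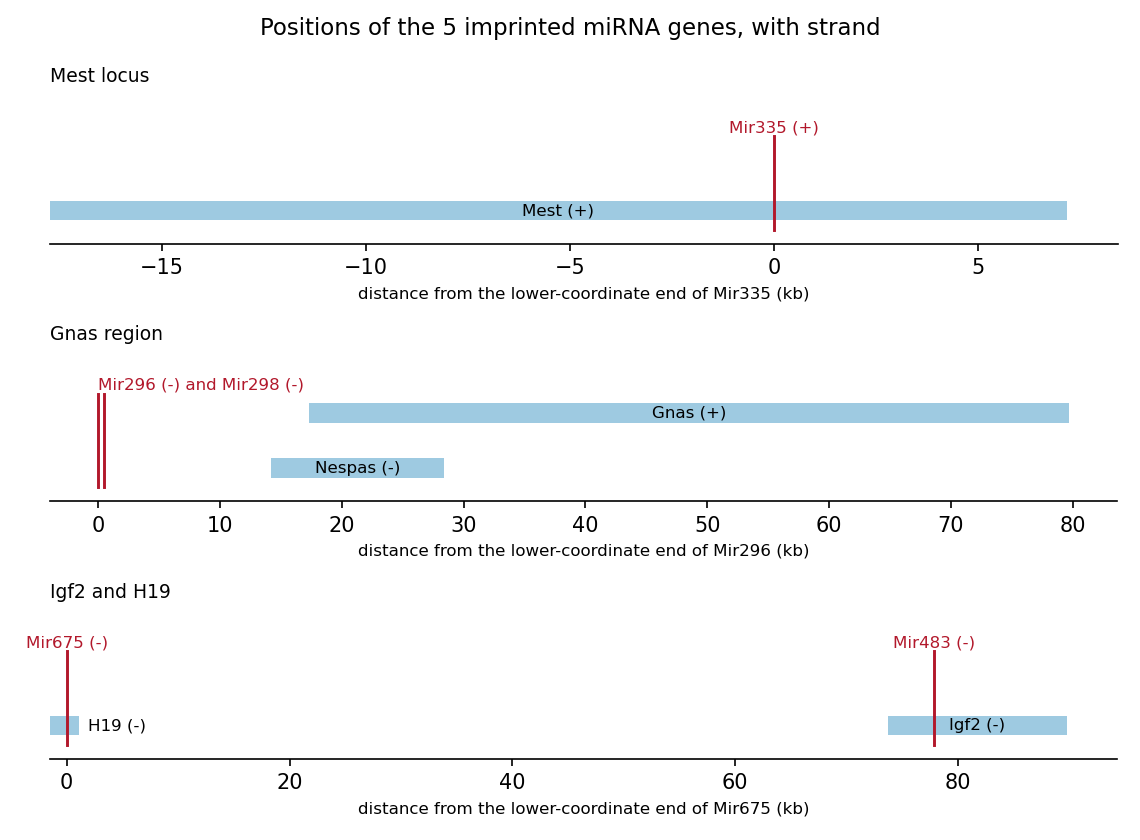
Maps of the Mest, Gnas and Igf2-H19 loci, with distance from the lower-coordinate end of 1 miRNA gene in kb on the x axis of each panel, host or neighbouring genes as blue bars and miRNA genes as red lines, with strand in brackets. Mir335 and Mir483 lie inside Mest and Igf2 and Mir675 inside H19, while Mir296 and Mir298 stand side by side outside the annotated ends of Nespas and Gnas.

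Replicate 1 held 3135960 counts in miRNA genes and replicate 2 held 4377622, from 9962659 and 12761689 reads. Multimapping reads, 36.3% and 41.7% of all reads, are outside the gene counts. Levels below are these miRNA counts scaled to a total of 1000000 in each library (CPM), and a gene-level count adds both arms. Marker miRNAs of neurons and hippocampus summed to 34829 CPM in replicate 1 and 32639 in replicate 2, with 5 of 8 detected and the 3 copies of Mir124a, which is neuron-specific, each below 10 counts in both. The muscle marker Mir206 was at 26.5 and 22.6 CPM and the liver marker Mir122 at 28.4 and 38.4 CPM. The other 4 muscle genes, copies of Mir1a and Mir133a, were at 0, and like those of Mir124a they have near-identical copies whose shared reads may stand outside the gene counts. The labels do not say whether the libraries came from separate animals, so the spread between them may be technical. Intervals cover counting error only. PCR copies are not independent molecules, so the intervals may be too narrow even for that, and the p-values too small.

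Mir335, Mir298, Mir296 and Mir483, 4 of the 5 members, had 10 or more counts in both libraries and are called detected, and Mir675 was not. The same rule was met by 384 of all 2202 genes, or 17.4%. Together the 5 genes held 8645 counts in replicate 1 and 12757 in replicate 2, shares of 0.276% (Clopper-Pearson 95% interval 0.270% to 0.282%) and 0.291% (0.286% to 0.297%) of all miRNA counts. The mean share was 0.284% ± 0.0111 (SD, n = 2). The median level of the 4 detected members was 422 CPM, beside 116 CPM over all 384 detected genes.

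Mir335, from the Mest intron, was the most abundant member. It had 4988 counts in replicate 1 and 9700 in replicate 2. These counts were 1591 CPM (exact Poisson 95% interval 1547 to 1635) and 2216 CPM (2172 to 2260), a mean of 1903 ± 442 CPM (SD, n = 2). Mir335 was thus higher in replicate 2, and by its mean it ranked 67 among the 384 detected genes. It supplied 57.7% of the members' counts in replicate 1 and 76.0% in replicate 2.

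Mir298, of the Gnas region, came next and had the opposite direction between the libraries. It had 3084 counts, or 983 CPM (949 to 1019), in replicate 1 and 1763 counts, or 403 CPM (384 to 422), in replicate 2. Its mean was 693 ± 411 CPM and its rank 114. The deeper library thus held the smaller number of its reads. In mouse cells miR-298 has been reported to act on the mRNA of Bace1, the beta-secretase that starts the cleavage of the amyloid precursor protein into amyloid beta.

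Mir296, the neighbour of Mir298, was lower in level and higher in replicate 2. It had 316 counts, or 101 CPM (90.0 to 113), in replicate 1 and 886 counts, or 202 CPM (189 to 216), in replicate 2. Its mean was 152 ± 71.9 CPM and its rank 179. In mouse embryonic stem cells miR-296 has been reported to act on the pluripotency gene Nanog. It has also been reported, in human endothelial cells, to raise the levels of growth factor receptors.

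Mir483, from the Igf2 intron, was the steadiest of the detected members. It had 257 counts, or 82.0 CPM (72.2 to 92.6), in replicate 1 and 408 counts, or 93.2 CPM (84.4 to 103), in replicate 2. Its mean was 87.6 ± 7.95 CPM and its rank 209, below the median of detected genes. Its counting intervals in the 2 libraries overlap, whereas those of Mir335, Mir298 and Mir296 do not.

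Mir675, processed from H19, had a count of 0 in both libraries. With 3 counts taken as what a 0 still allows in each library, its level could reach 0.957 CPM in replicate 1 and, at the greater depth, 0.685 CPM in replicate 2. Mir483 lies in the same imprinted domain. Its count was 85.7 times the limit of 3 counts in replicate 1 and 136 times in replicate 2. For Mir335 the count was 1663 times and 3233 times that limit. These folds leave out the counting error of Mir483 and Mir335. A count of 0 was shared by 1445 of the 2202 genes in both libraries. Of the 84 miRNA genes that overlap an exon of a long non-coding gene on their strand, as Mir675 does, 46 were detected and 26 were at 0 in both libraries. One of the detected ones is the imprinted Mir770 in Meg3, at 7682 and 5919 CPM in replicates 1 and 2. In mouse placenta miR-675 limits growth and has been reported to act on the mRNA of the growth factor receptor Igf1r.

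**Figure D2:**
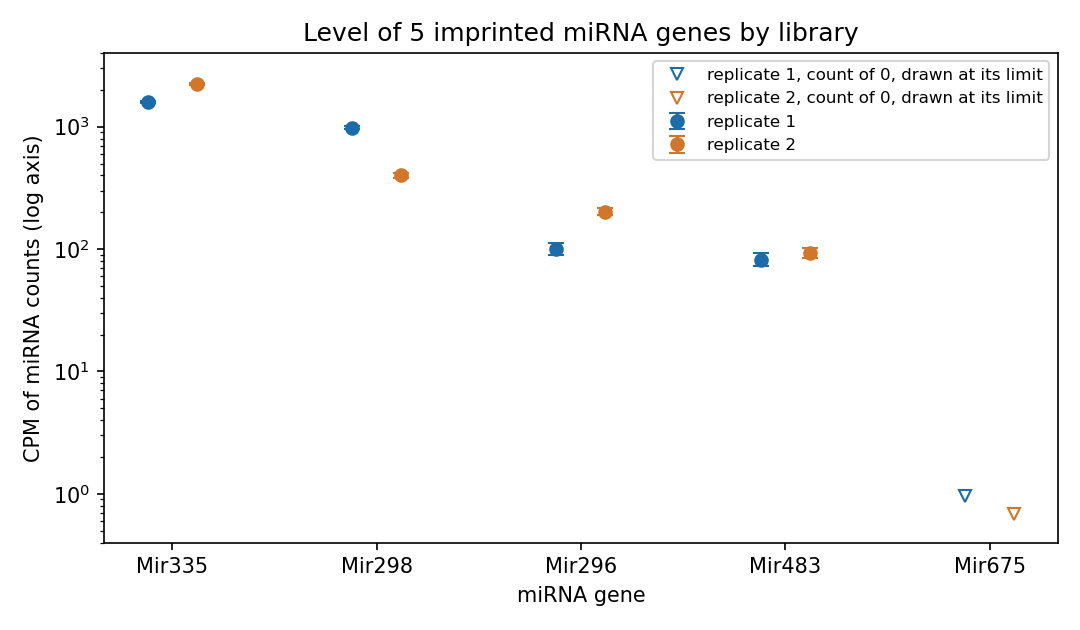
Level in CPM on a log axis of each of the 5 genes in replicate 1 (blue) and replicate 2 (orange), with exact Poisson 95% intervals as bars, and open triangles at the limit of 3 counts where the count was 0. Mir298 is the only detected gene of the 4 that is higher in replicate 1, and Mir675 lies at a limit of 0.957 and 0.685 CPM.

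The order Mir335, Mir298, Mir296, Mir483 was the same in both libraries. Mir335 exceeded Mir298 1.62 times in replicate 1 and 5.50 times in replicate 2. Mir298 exceeded Mir296 9.76 times and 1.99 times, and Mir296 exceeded Mir483 1.23 times and 2.17 times. Of these neighbours in the order, Mir296 and Mir483 lay closest on average, with a difference of 0.29 in replicate 1 and 1.11 in replicate 2 on the log2(CPM + 1) scale (mean 0.70, SD 0.58). Their counting intervals overlap in replicate 1 and do not in replicate 2. The genes are 73 to 98 bases long, and per 100 bases of gene their mean levels kept the order, at 1942, 845, 192 and 120 CPM.

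Between the libraries, 3 of the 4 detected members differed beyond counting error. Replicate 1 over replicate 2, after TMM scaling, the log2 ratio was 1.36 for Mir298 (exact 95% interval 1.27 to 1.44, adjusted p = 5.57e-228 by an exact binomial test with Benjamini-Hochberg adjustment over 459 genes). For Mir296 it was -0.94 (-1.13 to -0.75, adjusted p = 2.69e-24, same exact test) and for Mir335 -0.41 (-0.46 to -0.36, adjusted p = 4.92e-60, same exact test). For Mir483 it was -0.12 (-0.35 to 0.11) and did not pass (adjusted p = 0.406, same exact test). The test called 261 of the 459 genes, or 56.9%, so most tested miRNA genes differed in this sense and the 3 of 4 members do not stand apart. It takes counting error as its only null and says that these libraries differ, not why. A ratio of 2-fold or wider was found in 48 of the 384 detected genes, or 12.5%, and among the members in Mir298 alone, at 2.56-fold. With no TMM factor, or with all reads as library size, Mir296 passed 2-fold as well (log2 ratios of -1.01 and -1.13). The median size of the log2 ratio over detected genes was 0.37, which Mir335 slightly exceeded in size.

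**Figure D3:**
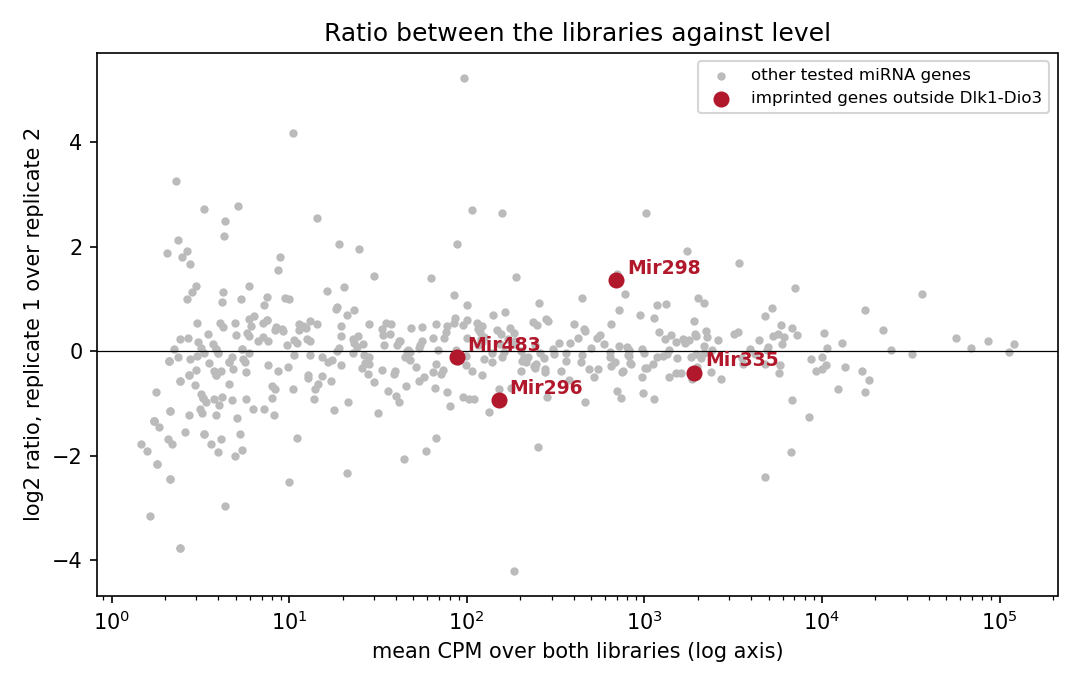
Log2 ratio, replicate 1 over replicate 2, on the y axis against mean CPM over both libraries on a log x axis, for the 459 tested genes except those with a count of 0 in 1 library. The 4 detected imprinted genes are red: Mir298 lies above the line of equal levels at 1.36, and Mir296, Mir335 and Mir483 lie below it at -0.94, -0.41 and -0.12.

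Mir296 and Mir298 moved in opposite directions although 378 bases on 1 strand separate them. Mir298 over Mir296 was 9.76 in replicate 1 and 1.99 in replicate 2, a shift of 4.90 times. Scaling of the libraries cannot change this shift, since it is formed within each library. Among detected miRNA genes, 61 pairs of neighbours on 1 strand lie less than 1000 bases apart. The difference between the log2 ratios of the partners was 2.29 for Mir296 and Mir298, against a median of 0.53 over the pairs. Only Mir376c and Mir376b of the Dlk1-Dio3 region differed more, and 13 of the 61 pairs had opposite directions with both partners called. This comparison of pairs was chosen after the counts had been seen and is a description without a test.

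The hairpins of the pair are shown because it differs most among the members, from RefSeq (GRCm38.p6), 5′ to 3′ on the minus strand of chromosome 2, with both arms in capitals.
Mir298 hairpin: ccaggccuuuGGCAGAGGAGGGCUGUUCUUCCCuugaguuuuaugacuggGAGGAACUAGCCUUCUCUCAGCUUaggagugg
Mir296 hairpin: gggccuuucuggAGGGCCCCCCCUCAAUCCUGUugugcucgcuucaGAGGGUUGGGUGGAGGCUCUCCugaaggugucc

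The Mir296 hairpin holds an unbroken run of C in its 5p arm and is richer in G and C than 89.7% of the hairpins in the table, the Mir298 hairpin than 59.2%. Reads of the strain were counted over the mm10 reference, and whether sequence differences of CAST in these hairpins touch the counts was not tested.

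**Figure D4:**
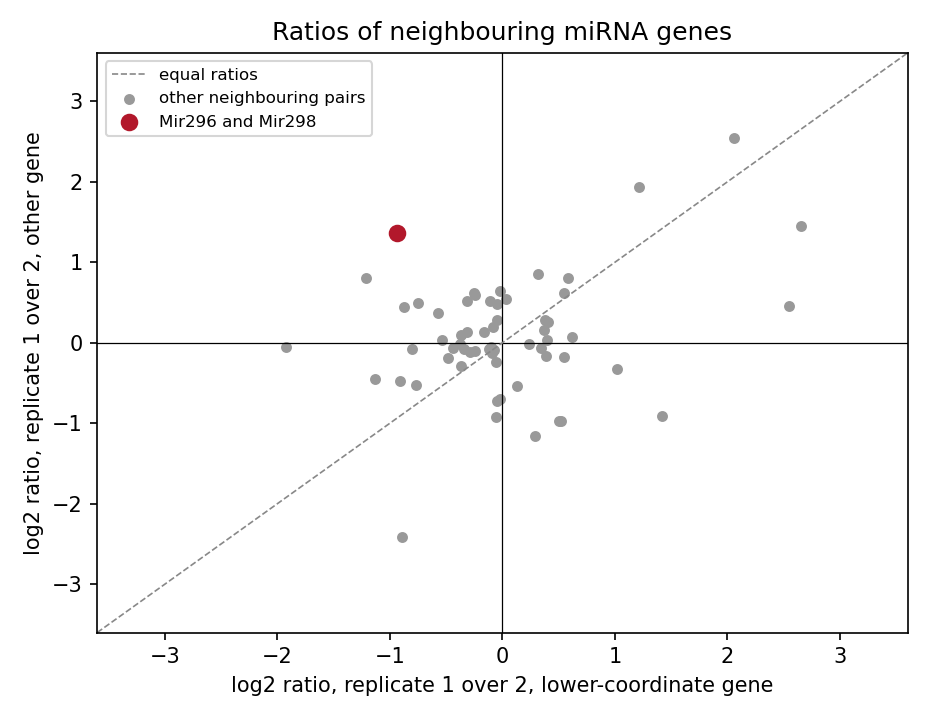
Log2 ratios, replicate 1 over replicate 2, of the 61 neighbouring pairs, with the gene of lower coordinate on the x axis and its partner on the y axis, and a dashed line for equal ratios. Mir296 and Mir298 (red) lie at -0.94 and 1.36, in the upper left and far from the dashed line.

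Markers of several cell types differed between the libraries too. The choroid plexus and ependyma list, which marks tissue that lines the ventricles, summed to 2993 CPM in replicate 1 and 1095 in replicate 2, with 4 of 6 genes detected and Mir449b at 0. Mir34c, a miRNA of ciliated cells, was at 1747 and 292 CPM and Mir204 at 1148 and 744 CPM. Like Mir298, all 4 detected genes of the list were higher in replicate 1 (log2 ratios from 0.45 to 2.65). Mir296, Mir335 and Mir483 were not. Of the 261 genes called by the exact test, 133 were higher in replicate 1. The list of meninges, fibroblasts and pericytes summed to 8296 and 6981 CPM, with 3 of 6 detected and Mir199a-1 and Mir199a-2 at 0. Like those of Mir124a, these are copies whose shared reads may stand outside the gene counts. The pituitary and endocrine list summed to 2758 and 2219 CPM with both genes detected. All detected genes of the meninges and pituitary lists were higher in replicate 1 too. Their log2 ratios ran from 0.18 for Mir214 to 0.80 for Mir375. Endothelial Mir126a was at 12521 CPM in replicate 1 and 22475 in replicate 2, the direction of Mir296 and Mir335. Neuronal markers differed in both directions, with a log2 ratio of 0.80 for Mir132, -0.41 for Mir137 and -0.93 for Mir128-1. For Mir138-1 and Mir138-2 it was -0.03 and 0.23. Oligodendrocyte Mir219a-2 and Mir338 had ratios of -0.13 and 0.34, and red blood cell Mir451a and Mir486 of 0.52 and -0.23. Liver Mir122 was at -0.37 and muscle Mir206 at 0.30. Of the detected markers, Mir214, Mir138-1, Mir486, Mir122 and Mir206 did not pass the exact test. The part of these cells in the members' ratios was not tested, and in bulk tissue fewer cells of a type and less RNA per cell cannot be told apart.

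**Figure D5:**
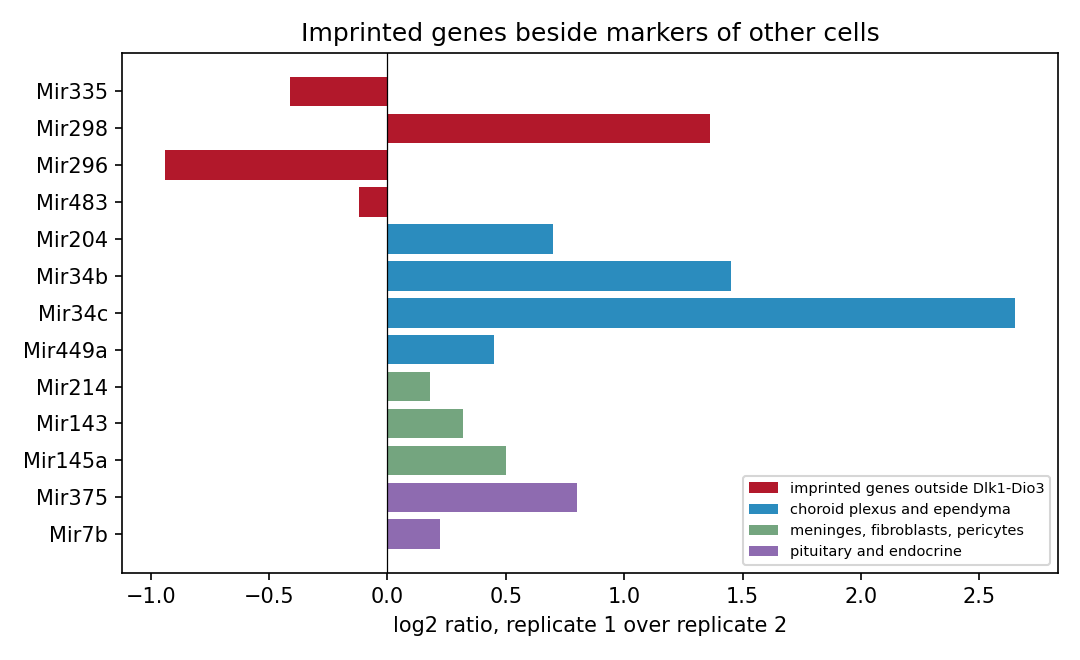
Log2 ratio, replicate 1 over replicate 2, of the 4 detected imprinted genes (red) and of marker genes with over 10 counts in all of the choroid plexus and ependyma (blue), of meninges, fibroblasts and pericytes (green) and of pituitary and endocrine cells (purple). All 9 marker genes shown and Mir298 have bars to the right of 0, and Mir335, Mir296 and Mir483 have bars to the left. Of the genes drawn, Mir214 (0.18) and Mir483 did not pass the exact test. The marker lists not drawn hold genes of both directions, such as Mir126a at -0.77, Mir128-1 at -0.93 and Mir132 at 0.80.

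By level in the 2 libraries, as the Euclidean distance of log2(CPM + 1), the genes nearest to Mir335 were Mir29c at 1481 and 2247 CPM and Mir27b at 1744 and 2238 CPM. Those nearest to Mir298 were Mir31, at 1016 and 381 CPM, and Mir101b, at 1046 and 516 CPM. Mir296 was nearest to Mir186, at 112 and 193 CPM, and then to Mir299a of the Dlk1-Dio3 region, at 79.4 and 187 CPM. Mir483 was nearest to Mir8112, at 81.3 and 97.1 CPM, and Mir129-1, at 85.5 and 87.9 CPM. With 2 libraries of 1 group this likeness covers level and the single difference between them.

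Other imprinted loci give the range in which the 5 genes lie. Of 67 miRNA genes between Dlk1 and Dio3, 51 were detected with a median of 363 CPM and 8.69% ± 0.288 of the counts (SD, n = 2), led by Mir127 and Mir433 at 24590 and 10274 CPM. Of these 51, 10 lay above Mir335, 22 above Mir298, 31 above Mir296 and 38 above Mir483. Among 119 miRNA genes inside Sfmbt2, which is imprinted in the mouse placenta, 8 were detected and 106 were at 0 in both libraries. The highest of them, Mir467d and Mir669c, were at 439 ± 59.3 and 403 ± 89.2 CPM, and many genes there are near-identical copies whose counts are uncertain. Mir184, reported as imprinted in mouse brain, was at 43.7 and 40.2 CPM, below the 4 detected members in both libraries.

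No mRNA was measured here, so the seeds can only be set beside the sequence of reported targets. The letters CCTCTGC, which pair with the seed of miR-298-5p, occur at 2 places in the longest annotated 3′ UTR of Bace1 (ENSMUST00000034591.10, 4104 bases), read on the mRNA strand. The same letters occur in 20.3% of 21020 such UTRs, and in 46.1% of the 1493 with a length within 20% of that of Bace1. The match is in capitals.
Bace1 UTR, match from base 292: agcttcagccctgacCCTCTGCc
Bace1 UTR, match from base 1095: gggctgatgcatttgCCTCTGCc

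The letters GCATACA, for the seed of miR-675-3p, occur at 2 places in that of Igf1r (7267 bases), and in 37.2% of the 376 UTRs of like length. The letters for miR-298-3p (AGTTCCT, in Bace1) and miR-675-5p (CCGCACC, in Igf1r) were not in these windows. Nor were those for reports from human cells, GGGGCCC for miR-296-5p in Hgs, GCTCTTG for miR-335-5p in Sox4 and Tnc, and AGGAGTG for miR-483-3p in Bbc3, in the mouse UTRs. These seed matches occur in 6.92%, 12.0% and 10.7% of all UTRs. Among UTRs of like length the shares were 3.56% for Hgs, 21.8% for Sox4, 5.81% for Tnc and 8.03% for Bbc3. For miR-298-3p in Bace1 and miR-675-5p in Igf1r they were 34.6% and 5.85%. In each case most UTRs of like length lack the match, so its absence says little.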

How the data were processed

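MicroRNA-seq of RNA below 30 nt gave 2 libraries of 1 group. For each library the authors deposited raw read counts of 2202 miRNA genes in 3 columns, below 4 summary rows. Per the file headers deposited beside the tables, the build is mm10 and the annotation M21. Trimming, aligner and counting tool: not given in the sources used here. As these tables lack column names, strand was inferred from the values: the second count column was taken as the sense strand, as it held 93.4% of both strands' counts in replicate 1 and 91.9% in replicate 2. For the members it equals the column that ignores strand. The summary rows stayed out of library sizes: of all reads, 26.5% and 18.1% were unmapped, 36.3% and 41.7% mapped to several places and 5.72% and 5.91% fell outside miRNA genes.

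CPM used miRNA counts as the denominator, and log2 levels a pseudocount of 1. The 2 counts of each gene with at least 10 counts in either library were tested across all 459 such genes with an exact two-sided binomial test against TMM-scaled library sizes (edgeR 4.0.16, R 4.3.3, factors 0.976 and 1.02), with Benjamini-Hochberg adjustment and a threshold of 0.05. Intervals are exact at 95%. DESeq2 1.42.0 gave alternative size factors. The software was Python 3.11.15, numpy 2.4.6, pandas 2.3.3, scipy 1.17.1, matplotlib 3.10.9 and, for hairpin energies, RNAfold 2.7.2. Hairpins, arms and seeds are from the RefSeq table of GRCm38.p6, where all 5 members matched, and UTRs from M21 transcripts.

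The members, marker lists and other lists were chosen with earlier results of these data known. Named genes are the 5 members, the 2 nearest genes by level of each detected member, marker genes, the 2 leading genes of each other imprinted list and any expressed gene with a shared seed, of which there was none. Mir770, Mir376c and Mir376b were named after their values were seen. Alternatives covered strand column, denominator, count minimum, pseudocount, scaling and each replicate left out.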

Additional observations from a re-analysis of the deposited data

How the results depend on the processing

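Of 63 alternative values other than single-library ones, 45 stayed the same by rules set for each kind of result. Some of the 45 were fixed by the counts and are no support. Examples are Mir675, at 0 over any denominator, and the members detected at 5 or 20 counts, where their lowest count was 257. For ratios the rule was the same direction and call. For levels, shares and level differences it was a move of no more than the SD between the libraries. Numbers of genes had to stay within a set fold range, and the pair of Mir296 and Mir298 near the top rank. Single-library values of levels, shares and level differences are not in this tally, since with 2 libraries they always lie within the SD of the mean. In the other strand column all 5 members had 0 CPM and 0 of them were detected. With all reads as the denominator, Mir335, Mir298, Mir296 and Mir483 had 630, 224, 50.6 and 28.9 CPM and the members' share was 0.0934%. Without the 10 most abundant genes in the denominator the levels were 4489, 1671, 355 and 207 CPM, and without regard to strand the share was 0.308%. Both follow from the changed denominators.

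With all reads as library size, every log2 ratio shifted by -0.19. Mir483 then passed at -0.31 (exact binomial test, adjusted p = 0.0131), where its adjusted p was 0.159 to 0.406 under the main and the other scalings, and 91 of 280 called genes were higher in replicate 1, against 133 of 261. The calls for Mir335, Mir298 and Mir296 kept their directions under every scaling, with log2 ratios of -0.60 to -0.41, 1.16 to 1.36 and -1.13 to -0.94. With at least 1 count in either library 258 of 757 genes passed. Mir483 lay above Mir675 by 7.46 and 4.21 on the log2 scale with pseudocounts of 0.5 and 5, against 6.47 with 1, since Mir675 had no counts. Chosen after seeing the data, a gap of up to 10000 bases (101 pairs) or a minimum of 100 counts (46 pairs) left the pair of Mir296 and Mir298 with the second widest difference.

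Leaving out a replicate leaves no ratio. Single-library levels ranged from 1591 to 2216 CPM for Mir335, 403 to 983 for Mir298, 101 to 202 for Mir296 and 82.0 to 93.2 for Mir483. No paired analysis was possible because there is 1 group. Depth limits Mir675, where a count of 0 allows up to 0.957 CPM, and the small number of replicates limits every SD.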
